A study of Mus musculus with 45 samples.

Results

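Tumours given serplulimab with HLX53 were compared with tumours given pembrolizumab with tiragolumab in the experiment labelled T2215. The samples were taken by the treatment in their labels, 3 tumours per treatment, 6 of the 45 tumours in the series. All 45 were subcutaneous tumours of CT26, a BALB/c colon carcinoma line, grown in BALB/c mice whose PD-1 and TIGIT genes carry human knock-ins, and bulk RNA was sequenced from each. Serplulimab and pembrolizumab are antibodies against PD-1, and HLX53 and tiragolumab bind TIGIT. Each antibody was injected into the peritoneum at 10 mg/kg, 2 times a week, from day 8, when tumours measured 90 to 100 mm3. T2215 also held a vehicle group, each antibody alone and the other combinations of one PD-1 and one TIGIT antibody, 27 tumours in all, and a second experiment, T2106, had both pairs at the same doses. Below, the serplulimab pair is serplulimab with HLX53 and the pembrolizumab pair is pembrolizumab with tiragolumab. The vehicle mice carried the same knock-in genes and the same tumour line, so the vehicle tumours are not those of wild-type mice.

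PD-1 and TIGIT are inhibitory receptors on activated T cells and, for TIGIT, natural killer cells. PD-1 is engaged by PD-L1 on tumour and myeloid cells, and TIGIT competes with the activating receptor CD226 for PVR (CD155). Antibodies that block them can release T cells to kill and to secrete interferon gamma, which raises chemokines, guanylate-binding proteins, immunity-related GTPases and the machinery of antigen presentation. RNA of a whole tumour mixes cancer cells with every cell type that entered it, so fewer cells of a type and less RNA per cell cannot be told apart.

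Expression is given in FPKM, fragments per kilobase of transcript scaled to library size. Differences are on the scale log2(FPKM + 0.5), serplulimab pair minus pembrolizumab pair, with their standard error (SE) from limma, n = 3 tumours per group. A gene rose or fell where its Benjamini-Hochberg adjusted p over all 14914 genes tested was under 0.05. The labels name the tumours as separate samples and do not say more of the animals, so the p-values measure the spread between these tumours. The 27 libraries listed between 12918 and 14442 genes at 0.5 FPKM or more, and their depth in reads is unknown. Vim, a marker of mesenchymal cells and of the undifferentiated CT26 line, stood at 1641 to 2864 FPKM in the 6 tumours, while the epithelial marker Epcam stood at 0.00991 to 11 FPKM. Of the 6 libraries 2 stood apart. Replicate 2 of the serplulimab pair had 137 FPKM of the fat cell hormone gene Adipoq, against 14.5 and 0.509 in replicates 1 and 3, and replicate 3 of the pembrolizumab pair had 90.1 FPKM of the skeletal muscle actin gene Acta1, against 0.157 and 0.105. Library correlations were 0.90 to 0.98 within the serplulimab pair, 0.97 to 0.99 within the pembrolizumab pair and 0.86 to 0.98 between them.

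Of the 14914 genes 2 passed the test (0.0134%), both lower with the serplulimab pair, and none was higher. With only the 6 compared tumours in the fit neither passed (limma adjusted p = 0.129 for Gm43199 and 0.354 for 2610021A01Rik). With a filter at 2 FPKM 2610021A01Rik passed and Gm43199 lay below the filter. At an unadjusted p under 0.05 there were 3180 genes (21.3%), 1729 of them higher (11.6%) and 1451 lower (9.73%). With libraries centred on their medians the split turned, to 1545 higher and 1758 lower. The 3 tumours of one group lay above all 3 of the other in 1618 genes with the serplulimab pair higher (10.8%) and in 2126 with it lower (14.3%). After the 2 genes that passed, the smallest adjusted p was 0.222. The unadjusted counts depended on single tumours: without replicate 2 of the serplulimab pair 473 genes were higher and 181 lower, without its replicate 3 the counts were 2883 and 2715, and without replicates 1 or 2 of the pembrolizumab pair they were 818 and 792, or 710 and 722. Without replicate 1 of the serplulimab pair the counts were 1412 and 1536, and without replicate 3 of the pembrolizumab pair 2138 and 1078. List counts given below without a tumour stand beside these counts, not beside the shares found with every tumour kept. Without replicate 3 of the serplulimab pair 14 genes passed, 12 of them higher. Among those 12 were the myeloid receptor gene Treml4, the immunoglobulin genes Ighd, Ighg2b and Iglc1, and the T cell receptor segment Trav10d, and the other 7 were kappa light chain variable segments.

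The 2 genes that fell were Gm43199 and 2610021A01Rik, named after their values were seen. Gm43199 (ENSMUSG00000105551, GRCm38 chromosome 5, 55584494 to 55584800, plus strand) is annotated as a processed pseudogene, a retrotransposed copy of a messenger RNA. Its transcript of 307 bases aligned to the coding sequence of Hnrnpa2b1, an abundant RNA-binding protein of messenger RNA processing, with 87.2% identity over 288 aligned positions. Both stretches are shown because they say how much sequence the pseudogene and its parent share, with bases in capitals where they differ or stand beside a gap. They are bases 1 to 285 of the Gm43199 transcript and 220 to 505 of the Hnrnpa2b1 transcript in GENCODE M21.
Gm43199: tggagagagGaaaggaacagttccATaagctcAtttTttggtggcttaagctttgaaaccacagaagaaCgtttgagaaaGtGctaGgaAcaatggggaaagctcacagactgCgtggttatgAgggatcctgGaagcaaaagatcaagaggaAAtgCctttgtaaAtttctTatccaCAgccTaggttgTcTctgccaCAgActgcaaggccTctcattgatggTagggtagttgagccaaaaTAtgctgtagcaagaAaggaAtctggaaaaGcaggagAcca
Hnrnpa2b1: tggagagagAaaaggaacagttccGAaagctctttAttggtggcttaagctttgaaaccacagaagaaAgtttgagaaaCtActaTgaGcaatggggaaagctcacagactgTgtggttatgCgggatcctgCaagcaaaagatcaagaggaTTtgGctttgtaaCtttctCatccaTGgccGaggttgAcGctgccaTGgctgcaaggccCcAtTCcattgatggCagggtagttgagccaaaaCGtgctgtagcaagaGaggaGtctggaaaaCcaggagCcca

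In the pembrolizumab pair Gm43199 had 1.71, 1.73 and 1.77 FPKM. In the serplulimab pair it was listed at about 0 in every tumour (1.11e-05, 1.12e-05 and 1.04e-05 FPKM). The groups did not overlap, and the difference was −2.16 ± 0.23 (limma adjusted p = 7.78e-05), a value set by the pseudocount rather than a fold. The gene was also listed at about 0 in the 3 vehicle tumours and in all 12 tumours given a single antibody. The 2 mixed combinations lay between: pembrolizumab with HLX53 had 0.751, 0.162 and 0.875 FPKM, and serplulimab with tiragolumab had 0.943, 0.203 and 0.552. In T2106 the gene was listed at about 0 in the tumours of both pairs and of vehicle. Hnrnpa2b1 itself had 416, 427 and 437 FPKM with the serplulimab pair and 488, 457 and 478 with the pembrolizumab pair, also without overlap (−0.15, limma adjusted p = 0.51). Gm5778, another processed pseudogene, shares 83.2% of 285 aligned positions with Gm43199 and lay below the filter. It had 0.482, 0.479 and 0.309 FPKM with the pembrolizumab pair and was listed at about 0 in all 3 tumours of the serplulimab pair. A pseudogene can share reads with its parent, and the sources used here do not give how such reads were assigned.

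2610021A01Rik (ENSMUSG00000091474, chromosome 7, 41599230 to 41628533, plus strand) is annotated as protein coding. Its transcript resembles that of the zinc finger gene Zfp141, with 91.4% identity over 2269 bases, so these genes can share reads too. It had 5.63, 4.49 and 7.57 FPKM with the serplulimab pair and 22.7, 18 and 24.9 with the pembrolizumab pair, a fall of −1.82 ± 0.22 (limma adjusted p = 0.000446) with no overlap. Vehicle tumours had 7.63, 6.69 and 6.14 FPKM, so the pembrolizumab pair was the group that differed from vehicle (1.61 ± 0.22, adjusted p = 0.0032). The mixed combinations again lay between, at 10.8, 13.7 and 13.8 with pembrolizumab and HLX53 and at 13.6, 12.2 and 14.7 with serplulimab and tiragolumab. Zfp141 stood at 5.11, 3.84 and 6.03 FPKM with the serplulimab pair and at 6.35, 5.38 and 7.02 with the pembrolizumab pair. In T2106 2610021A01Rik had 3.71, 5.84 and 5.41 FPKM with the serplulimab pair and 6.91, 7.91 and 7.91 with the pembrolizumab pair, a difference of −0.58 that did not pass (adjusted p = 0.0541). Across the 27 tumours of T2215, which share these groups, 2610021A01Rik was the gene most like Gm43199 by Pearson's r of log2(FPKM + 0.5), at 0.86.

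**Figure D1:**
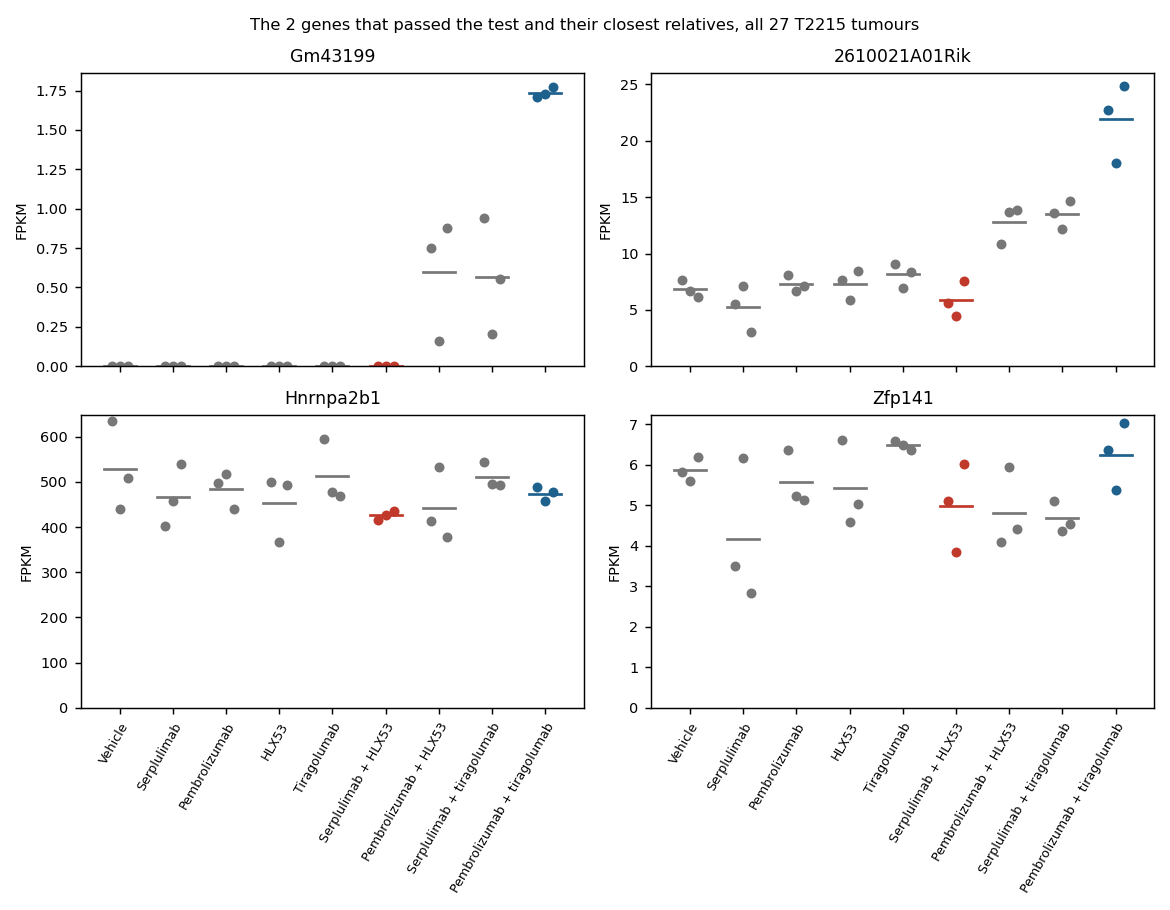
FPKM (linear axes from 0) of the 2 genes that passed the test and of the gene each most resembles, in all 27 T2215 tumours; points are tumours and lines are group means. Gm43199 stood at 1.71 to 1.77 with pembrolizumab and tiragolumab and near 0 in vehicle and single-antibody tumours, while its parent Hnrnpa2b1 stood at 457 to 488 with that pair and at 416 to 437 with serplulimab and HLX53.

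The receptors themselves were read through their mouse gene models, and the sources used here do not give how much of those models the human knock-ins replace. Pdcd1, which encodes PD-1 (chromosome 1, 94038305 to 94052553, minus strand), had 2.10, 2.38 and 0.615 FPKM with the serplulimab pair and 0.172, 0.194 and 0.494 with the pembrolizumab pair. Vehicle tumours had 2.91, 0.689 and 2.40. The pairs did not overlap, and the difference of 1.39 ± 0.63 did not pass (adjusted p = 0.228). Tigit (chromosome 16, 43648867 to 43664146, minus strand) went the other way. It had 9.92, 2.77 and 9.97 FPKM with the serplulimab pair and 16.4, 17.2 and 14.0 with the pembrolizumab pair, with vehicle at 6.83, 14.4 and 14.1. This difference of −1.20 ± 0.43 also missed the threshold (adjusted p = 0.222), and the low tumour was replicate 2, the one rich in Adipoq. Cd226, the activating receptor that shares ligands with TIGIT, differed by 1.63 ± 0.57 and overlapped between the groups. Pvr, that shared ligand, differed by −0.52 ± 0.34 with overlap. Cd274, which encodes PD-L1, had 61.8, 36.8 and 28.2 FPKM with the serplulimab pair and 5.97, 3.99 and 15.7 with the pembrolizumab pair, without overlap (2.38 ± 0.86, adjusted p = 0.222). Vehicle lay between, at 19.6, 22.3 and 19.0. Of 16 checkpoint receptors and ligands tested, of 18 listed, none passed. At an unadjusted p under 0.05, 12 were higher, beside 11.6% of all genes, and 1, Tigit, was lower, beside 9.73%. The median difference was 1.39. Without replicate 2 of the serplulimab pair the counts were 2 and 0. Without its replicate 1, or replicate 1 or 2 of the pembrolizumab pair, 7, 7 and 5 were higher. Among the higher ones were Havcr2, the TIM-3 gene (16.6, 15.6 and 7.21 against 2.88, 2.60 and 4.83 FPKM), Lag3 (1.83 ± 0.73) and Ctla4 (1.55 ± 0.67).

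T cell genes had higher values with the serplulimab pair, and no single gene passed the test. Of 21 T cell identity and receptor signalling genes tested, of 22 listed, all 21 had an unadjusted p under 0.05 in that direction, beside 11.6% of all genes. Without overlap were 19, beside 10.8% of all genes. The median of the 21 was 1.44, against a median of −0.02 over all genes. Cd3e, a chain of the T cell receptor complex, had 4.65, 6.65 and 2.17 FPKM with the serplulimab pair and 0.505, 0.314 and 1.38 with the pembrolizumab pair (2.00 ± 0.75, adjusted p = 0.222). The lowest tumour of the former, replicate 3, stood above the highest of the latter, also replicate 3. Vehicle tumours had 5.82, 1.70 and 4.02 FPKM, of which 1.70 lay below the range of the serplulimab pair. Cd8a, the coreceptor of killer T cells, had 5.78, 8.69 and 2.11 FPKM against 0.337, 0.205 and 1.29 (2.39 ± 0.95, adjusted p = 0.222), and vehicle had 8.29, 1.95 and 5.84. Cd4, the coreceptor of helper T cells, differed by 1.40 ± 0.56. The count of T cell genes at an unadjusted p under 0.05 was 3 without replicate 2 of the serplulimab pair, with a median of 1.17. It was 12 and 9 without replicates 1 and 2 of the pembrolizumab pair. In those settings 473 of 14730, 818 of 14903 and 710 of 14903 genes were higher, against 1729 of 14914 with every tumour kept. Regulatory T cell genes had a smaller median, 0.70 over 9 tested, and Foxp3, their defining factor, differed by 0.58 ± 0.29 with overlap.

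The granules of killer cells followed the same order. All 21 genes of CD8 T cells and cytotoxic effectors had higher means with the serplulimab pair (median 2.26). Of these 20 did not overlap, beside 10.8% of all genes, and 18 had an unadjusted p under 0.05, beside 11.6%. Gzmb, the granzyme that triggers death of the target cell, had 121, 71.7 and 33.7 FPKM with the serplulimab pair and 9.53, 7.63 and 15.2 with the pembrolizumab pair (2.62 ± 1.07, adjusted p = 0.223). Every tumour of the first group was above every tumour of the second. Vehicle had 56.6, 31.8 and 51.8 FPKM. Prf1, the pore-forming perforin, had 43.3, 20.4 and 10.5 FPKM against 2.63, 3.10 and 4.0 (2.55 ± 1.08), with vehicle at 15.6, 11.9 and 21.6. Ifng, the gene of interferon gamma, had 5.39, 1.76 and 2.28 FPKM against 0.317, 0.0456 and 1.68 (1.75 ± 0.84). Its groups were separated by 1.76 against 1.68, and vehicle had 3.35, 1.99 and 1.92. Leaving out replicate 1 or 2 of the serplulimab pair gave 5 and 6 genes at an unadjusted p under 0.05, and leaving out replicate 1 or 2 of the pembrolizumab pair gave 6 and 3. Natural killer cell genes had a median of 1.65 over 9 tested of 12 listed. Of these 6 had an unadjusted p under 0.05, beside 11.6% of all genes, and the count was 3 without replicate 1 of the serplulimab pair. The natural killer lectin Klrd1 was the smallest by p (9.75, 15.8 and 4.29 against 0.812, 0.948 and 3.34 FPKM), and the receptor Ncr1, which marks these cells, overlapped (1.09 ± 0.48).

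**Figure D2:**
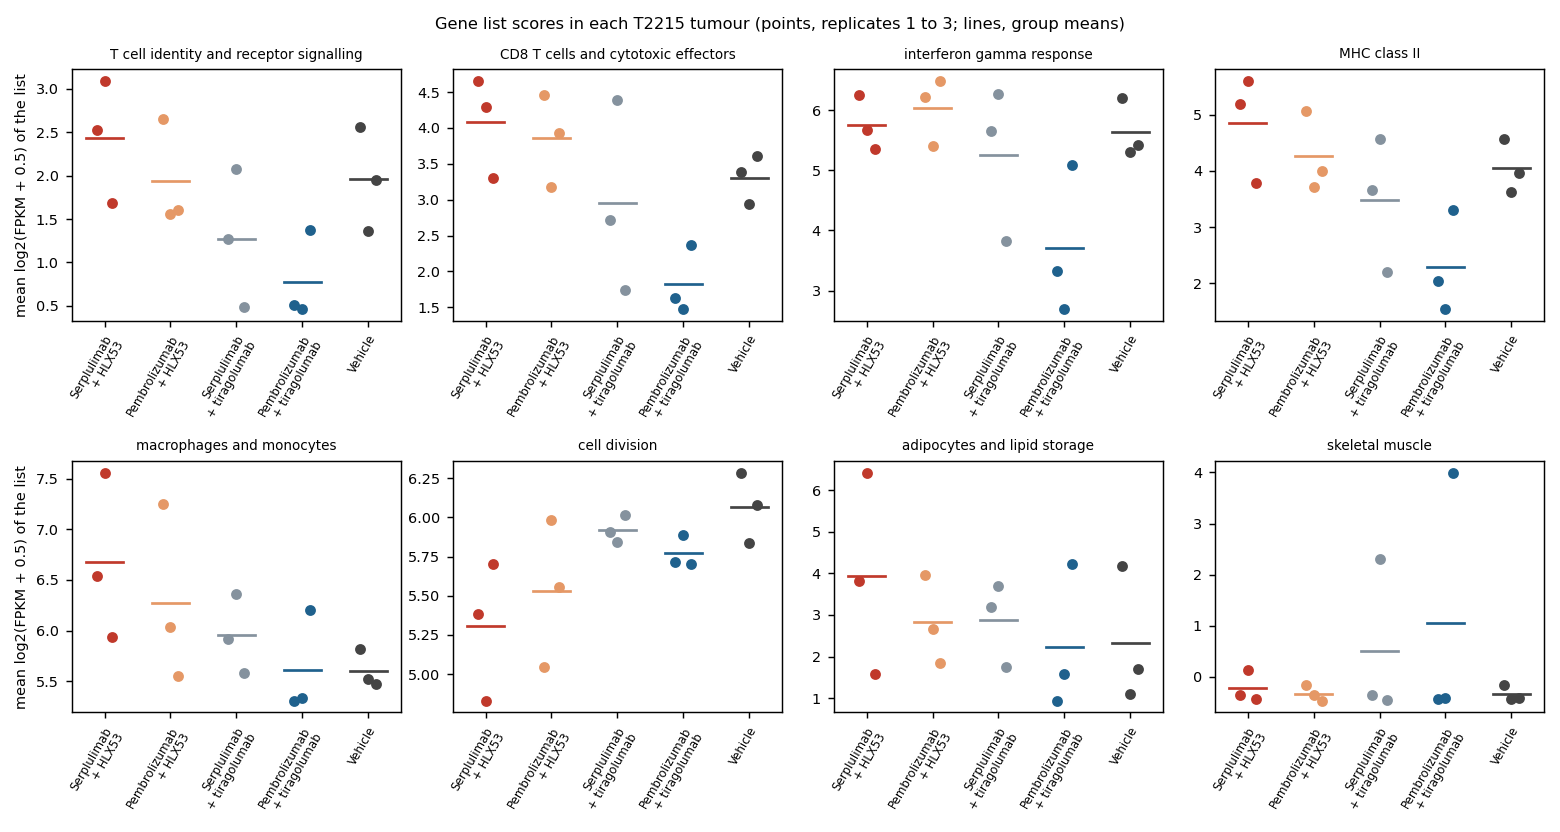
Scores of 8 gene lists (mean log2(FPKM + 0.5) of the members; axes do not start at 0) in the tumours of the 4 combinations and vehicle; points are replicates 1 to 3 from left to right and lines are group means. The T cell score was 1.69 to 3.10 with serplulimab and HLX53 and 0.46 to 1.37 with pembrolizumab and tiragolumab; replicate 2 of the former had the highest adipocyte score (6.42) and replicate 3 of the latter the highest muscle score (3.99).

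Genes induced by interferon gamma stood higher by a similar amount. All 28 tested of 29 listed had higher means with the serplulimab pair (median 2.10), and none passed. Of these 24 had an unadjusted p under 0.05, beside 11.6% of all genes, and 20 did not overlap, beside 10.8%. Igtp, an immunity-related GTPase, had 183, 105 and 107 FPKM against 17.0, 10.0 and 58.8 (2.52 ± 0.86, adjusted p = 0.222). Replicate 3 of the pembrolizumab pair was the highest of its group. Cxcl9, a chemokine that draws T cells, had 197, 86.7 and 60.5 FPKM against 8.98, 3.48 and 76.0, and here that replicate overlapped the serplulimab pair (2.84 ± 1.02). Without replicate 3 of the pembrolizumab pair all 28 had an unadjusted p under 0.05 (median 2.72). Without its replicate 2 there were 7 (median 1.61), and without replicate 1 of the serplulimab pair 14 (median 1.93). Without the 2 libraries rich in fat or muscle genes, a setting chosen with the values in view, there were 28 (median 2.83). Type I interferon response genes had a lower median, 0.87 over 23 tested, with 10 at an unadjusted p under 0.05, beside 11.6% of all genes. That count ran from 1 without replicate 2 of the pembrolizumab pair to 20 without its replicate 3.

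Promoters of 4 interferon-induced GTPases are printed because they share a sequence arrangement, by which they were picked. Transcription factors that interferons activate bind a gamma-activated site, searched here as TTCNNNGAA, and an interferon-stimulated response element, searched as TTTC, any 2 bases and TTTC, both on either strand. In the 150 bases before each start in RefSeq (GRCm38.p6), the first occurred in 4.09% of all 32851 promoters and the second in 1.59%. Of the 19 interferon gamma genes with an entry, each motif occurred in 9 (47.4%). Both occurred together in 5 (26.3%), Gbp7, Igtp, Irgm2, Tgtp1 and Tgtp2, against 0.101% of all promoters. The list shares count genes with a match in any of their entries, while the shares of all promoters count entries. In the 4 immunity-related GTPases among them the second motif began 11 bases after the start of the first and did not overlap it. Capitals mark both motifs.
Igtp (chr11:58199406-58199555, plus strand): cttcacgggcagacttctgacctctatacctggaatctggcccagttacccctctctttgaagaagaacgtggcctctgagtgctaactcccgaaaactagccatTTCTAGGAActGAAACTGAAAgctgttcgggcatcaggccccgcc
Irgm2 (chr11:58214827-58214976, plus strand): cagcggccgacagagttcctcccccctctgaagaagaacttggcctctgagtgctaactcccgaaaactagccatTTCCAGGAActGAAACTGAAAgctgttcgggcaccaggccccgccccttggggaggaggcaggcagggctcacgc
Tgtp1 (chr11:48992247-48992396, minus strand): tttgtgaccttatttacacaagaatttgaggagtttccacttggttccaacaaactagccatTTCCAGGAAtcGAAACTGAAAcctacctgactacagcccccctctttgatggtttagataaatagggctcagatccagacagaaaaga
Tgtp2 (chr11:49064213-49064362, minus strand): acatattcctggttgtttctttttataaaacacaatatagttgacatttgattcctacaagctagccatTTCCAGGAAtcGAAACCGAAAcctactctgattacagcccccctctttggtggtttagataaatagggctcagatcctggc
Irgm2 had 50.3, 34.9 and 34.2 FPKM with the serplulimab pair and 7.88, 4.39 and 25.0 with the pembrolizumab pair (1.97 ± 0.68). Tgtp1 had 74.9, 38.9 and 51.4 against 7.99, 2.75 and 26.2 (2.57 ± 1.08). Tgtp1 and Tgtp2 are near-identical copies that can share reads. The printed promoters of Igtp and Irgm2 also match at most bases over a long stretch. The 4 genes are therefore not independent occurrences of the motifs. The motif matches are a description of the letters and show no binding.

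MHC class II genes had the largest median of the 35 lists. MHC class II molecules show peptides to CD4 T cells and are made by dendritic cells, macrophages and B cells, or by other cells under interferon gamma. All 10 class II genes tested of 11 listed were higher at an unadjusted p under 0.05 (median 2.79), beside 11.6% of all genes. Without overlap were 9, beside 10.8% of all genes. H2-Aa, a class II alpha chain, had 142, 198 and 39.8 FPKM with the serplulimab pair and 8.69, 3.96 and 23.5 with the pembrolizumab pair (3.39 ± 1.06, adjusted p = 0.222). Vehicle tumours had 70.0, 34.8 and 43.4 FPKM, above every tumour of the pembrolizumab pair. H2-Eb1 had 364, 495 and 107 FPKM against 15, 9.45 and 61.7 (3.66 ± 1.13), and the invariant chain gene Cd74 differed by 3.31 ± 1.02. Ciita, the master regulator of class II, overlapped through replicate 3 of both pairs (5.46, 9.02 and 2.05 against 0.357, 0.280 and 2.26 FPKM). Leaving out each of the 6 tumours in turn left 9 or 10 genes at an unadjusted p under 0.05 and medians of 2.41 to 3.34. The 17 MHC class I and peptide loading genes had a smaller median, 1.10. Of these 16 did not overlap, beside 10.8% of all genes, and 13 had an unadjusted p under 0.05, beside 11.6%. B2m, the class I light chain, had 4532, 4191 and 3345 FPKM against 2293, 2006 and 2603 (0.80 ± 0.29). Without replicate 1 of the serplulimab pair or replicates 1 or 2 of the pembrolizumab pair the class I count was 7, 8 and 6.

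Class II promoters carry an inverted CCAAT box, the Y box bound by NF-Y, beside the elements that recruit CIITA. CCAAT on either strand occurred in the 150 bases before the start of 7 of 8 class II genes with an entry (87.5%) and in 24.5% of all promoters. The first share again counts genes and the second counts entries. The gamma-activated site and the response element occurred in none of the 8. The chains H2-Aa and H2-Eb1 are shown, with CCAAT or its complement in capitals.
H2-Aa (chr17:34287824-34287973, minus strand): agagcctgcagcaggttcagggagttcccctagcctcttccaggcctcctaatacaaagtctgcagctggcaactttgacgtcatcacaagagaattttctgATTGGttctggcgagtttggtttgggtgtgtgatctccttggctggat
H2-Eb1 (chr17:34305717-34305866, plus strand): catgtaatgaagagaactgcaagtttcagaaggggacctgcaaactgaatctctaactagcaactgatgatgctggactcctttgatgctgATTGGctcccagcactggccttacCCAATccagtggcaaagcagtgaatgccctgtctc

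**Figure D3:**
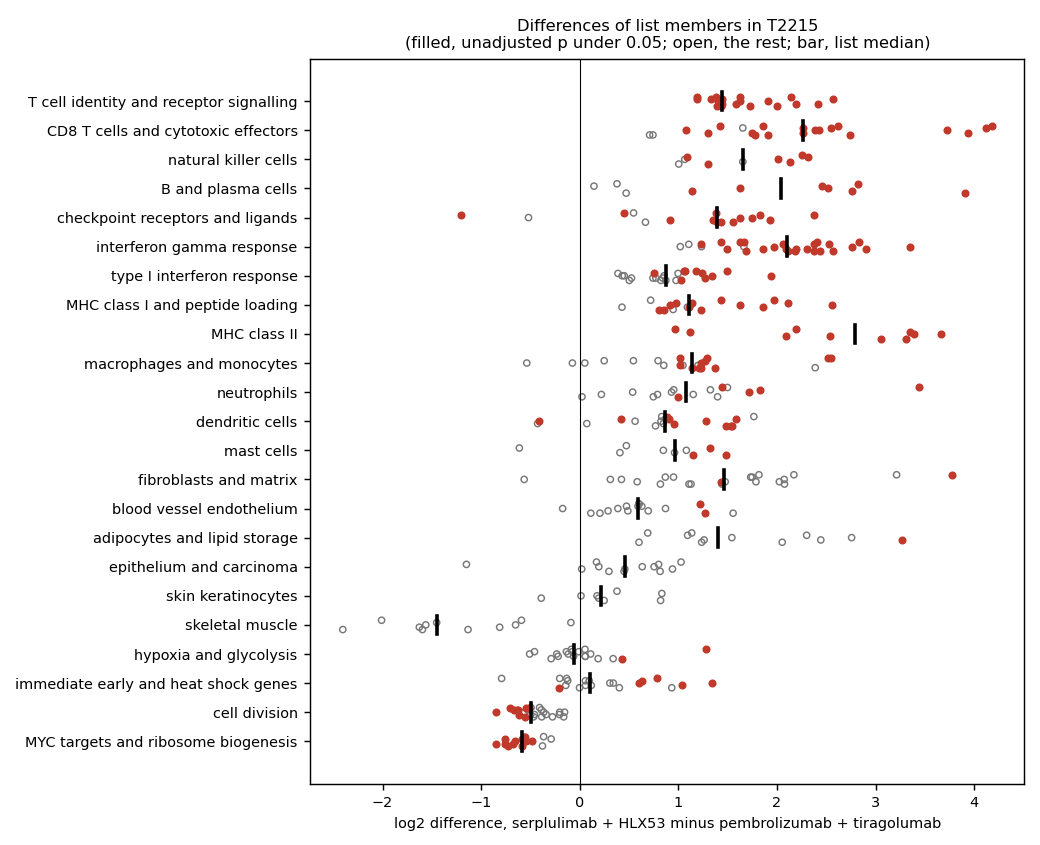
Log2 differences between the pairs in T2215 for the members of 23 gene lists; each point is a gene, filled where the unadjusted p was under 0.05, and bars are list medians. Medians ran from 2.79 for MHC class II to −1.45 for skeletal muscle, and no member passed the adjusted threshold.

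Macrophage and monocyte genes had a median of 1.13 over 21 tested. Of these 11 had an unadjusted p under 0.05, beside 11.6% of all genes, and 4 did not overlap, beside 10.8%. Adgre1, which encodes F4/80, had 53.3, 101 and 29.2 FPKM against 19.2, 17.4 and 35.6 (1.23 ± 0.50). Replicate 2 of the serplulimab pair was the highest here, and without it the median was 0.60 with 2 genes at an unadjusted p under 0.05. Without its replicate 1, or replicate 1 or 2 of the pembrolizumab pair, the count was 6, 2 and 3. Nos2, the inducible nitric oxide synthase of interferon-activated macrophages, had 41.5, 24.0 and 30.1 FPKM against 3.85, 4.47 and 6.86 without overlap (2.54 ± 1.05, adjusted p = 0.224). Arg1, an arginase of other macrophage states, had 180, 125 and 248 against 161, 211 and 192 (−0.07 ± 0.71). Neutrophil genes had a median of 1.07 over 16 tested, and the calprotectin subunit S100a8 had 90.2, 158 and 35.3 FPKM against 13.9, 48.3 and 46.3 with overlap. Dendritic cell genes had a median of 0.87 over 19 tested, 17 of them positive and 2 negative. At an unadjusted p under 0.05, 9 were higher, beside 11.6% of all genes, and 1 was lower, beside 9.73%. The groups did not overlap in 4 that were higher, beside 10.8%, and in 1 that was lower, beside 14.3%. Without replicate 2 of the serplulimab pair the median was 0.52 with 2 genes higher at that p. The smallest p among the 19 was that of the cross-presenting cell receptor Clec9a (1.98, 4.78 and 0.598 against 0.288, 0.180 and 0.569 FPKM). B and plasma cell genes had a median of 2.04 over 10 tested of 17 listed, none without overlap. Ms4a1, a defining B cell gene, lay below the filter. Igkc, the kappa constant region, had 118, 251 and 7.57 FPKM against 2.02, 1.36 and 14.6, high in replicates 1 and 2 of the serplulimab pair. Cxcl13, a chemokine that draws B cells, had 15, 28.4 and 3.11 FPKM against 0.283, 0.0802 and 1.17 (3.69 ± 1.20, adjusted p = 0.222).

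Genes of growth leaned the other way. All 25 cell division genes had lower means with the serplulimab pair (median −0.49). Of these 9 had an unadjusted p under 0.05, beside 9.73% of all genes, and 6 did not overlap, beside 14.3%. Mki67, the proliferation marker, had 16.4, 18.5 and 26.5 FPKM against 26.2, 30.8 and 31.7, with vehicle at 37.5, 32.9 and 32.1 (−0.55 ± 0.24). The count was 0 without replicate 2 of either pair, 18 without replicate 3 of the serplulimab pair, and 4 or 5 without each of the other tumours. All 15 MYC target and ribosome biogenesis genes were also lower on average (median −0.58). Of these 12 had an unadjusted p under 0.05, beside 9.73% of all genes. Polr1a, the catalytic subunit of RNA polymerase I, had 15.1, 8.67 and 18.2 FPKM against 23.4, 26.7 and 27.4 (−0.92 ± 0.25). Without replicate 2 of the serplulimab pair this list had 2 such genes and a median of −0.23, and without replicate 2 of the pembrolizumab pair 7. In the scores of both lists the lowest of the 6 tumours was replicate 2 of the serplulimab pair, which also held the most fat and fibroblast RNA.

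RNA of the tissue around the tumour differed between single tumours. The 12 adipocyte genes all had higher means with the serplulimab pair (median 1.40), none without overlap, and their summed level was 141 to 4039 FPKM with that pair and 130 to 666 with the other. Without replicate 2 of the serplulimab pair the median was 0.23. Skeletal muscle genes had a median of −1.45 over 11 tested and summed levels of 4.57 to 12 and 4.12 to 271 FPKM. Without replicate 3 of the pembrolizumab pair only 6 muscle genes passed the filter, and their median was 0.26. Apart from that replicate, the myosin gene Myh4 was listed at about 0 in the other 5 tumours, at most at 3.65e-05 FPKM. Of 22 fibroblast and matrix genes 21 had higher means (median 1.46) and 2 an unadjusted p under 0.05, beside 11.6% of all genes, a count that was 0 without replicate 2 of the serplulimab pair, 8 without its replicate 3 and 7 without replicate 3 of the other pair. Col1a1, the main collagen chain, had 409, 1165 and 310 FPKM against 96.1, 93.4 and 218, without overlap (2.07 ± 1.04, adjusted p = 0.243). The part of fat, muscle and connective tissue RNA in the other differences was not tested. The 2 libraries rich in fat or muscle genes were also left out, a setting chosen with the values in view. Over all 14660 genes then tested, 784 were higher and 134 lower at an unadjusted p under 0.05. The T cell median was then 1.49 with 13 genes higher at that p, and the class II median was 3.01 with 10. The cell division median was −0.28 with none lower, and 1 gene, Gm43199, passed.

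Of the genes tested, the 10 with the smallest p in each direction, leaving out Gm, Rik and dotted clone names, -ps pseudogenes and receptor segments, all had an adjusted p of 0.222 and did not overlap. Over all genes 10.8% were higher and 14.3% lower without overlap. As the named genes were picked by p, their lack of overlap adds no support. Higher with the serplulimab pair were Cebpb, a transcription factor of myeloid cells and inflammation (68.2, 54.5 and 54.1 against 26.3, 21.6 and 35.9 FPKM, 1.09 ± 0.27), Treml4, a receptor of myeloid cells (1.89 ± 0.48), and Tnfrsf1b, a receptor for tumour necrosis factor (0.86 ± 0.22). Vehicle tumours had 31.8, 44.3 and 38.6 FPKM of Cebpb, below the serplulimab pair and overlapping the pembrolizumab pair. The AP-1 subunit gene Jund (0.60 ± 0.16), Irf2bp2 (0.63), Foxred2 (0.83), Klhl17 (0.53), the antisense gene Arhgap27os2 (0.94), and BC035044 (1.55) and BC117090 (1.28) completed that side. Lower were Polr1a and Polr1b (−0.76 ± 0.22), subunits of RNA polymerase I, and Utp20 (−0.86 ± 0.24), a ribosome assembly factor. Trp53, the gene of the tumour suppressor p53, had 84.6, 58.3 and 93.8 FPKM against 135, 136 and 125 (−0.77 ± 0.21), with vehicle at 126, 104 and 120. Stt3a, a catalytic subunit of the N-glycosylation enzyme, had 48.0, 44.1 and 49.8 against 66.0, 65.8 and 67.6 (−0.49 ± 0.12). Sgip1 (−0.86), Lmbr1l (−0.58), the spindle orientation gene Gpsm2 (−0.90), Ube2cbp (−0.74) and the small nucleolar RNA host Snhg4 (−0.94) were the others.

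The vehicle tumours place each pair, and both contrasts share those 3 tumours. Against vehicle, no gene passed with the serplulimab pair (0%), with 2729 at an unadjusted p under 0.05 (18.3%). With the pembrolizumab pair 2 rose (0.0134%), Gm43199 and 2610021A01Rik, with 655 at an unadjusted p under 0.05 (4.39%), 554 of them lower (3.71%). Interferon gamma genes had a median of 0.05 with the serplulimab pair and −1.98 with the pembrolizumab pair, where 23 of 28 were lower at an unadjusted p under 0.05. MHC class I genes had medians of −0.02 and −1.13 (14 of 17 lower), and type I interferon genes 0.00 and −0.87 (13 of 23 lower). In these 3 lists the serplulimab pair lay near vehicle and the pembrolizumab pair below it. T cell genes had medians of 0.45 and −1.06, cytotoxic genes 0.40 and −1.60, and class II genes 0.74 and −2.07. Cell division genes had a median of −0.74 with the serplulimab pair (23 of 25 lower at an unadjusted p under 0.05, background 12.6%). With the pembrolizumab pair it was −0.27, and 1 of 25 was lower, near the background of 3.71%. Neutrophil genes had medians of 1.59 (9 of 16 higher, background 5.69%) and 0.61 (1 of 16, background 0.677%).

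**Figure D4:**
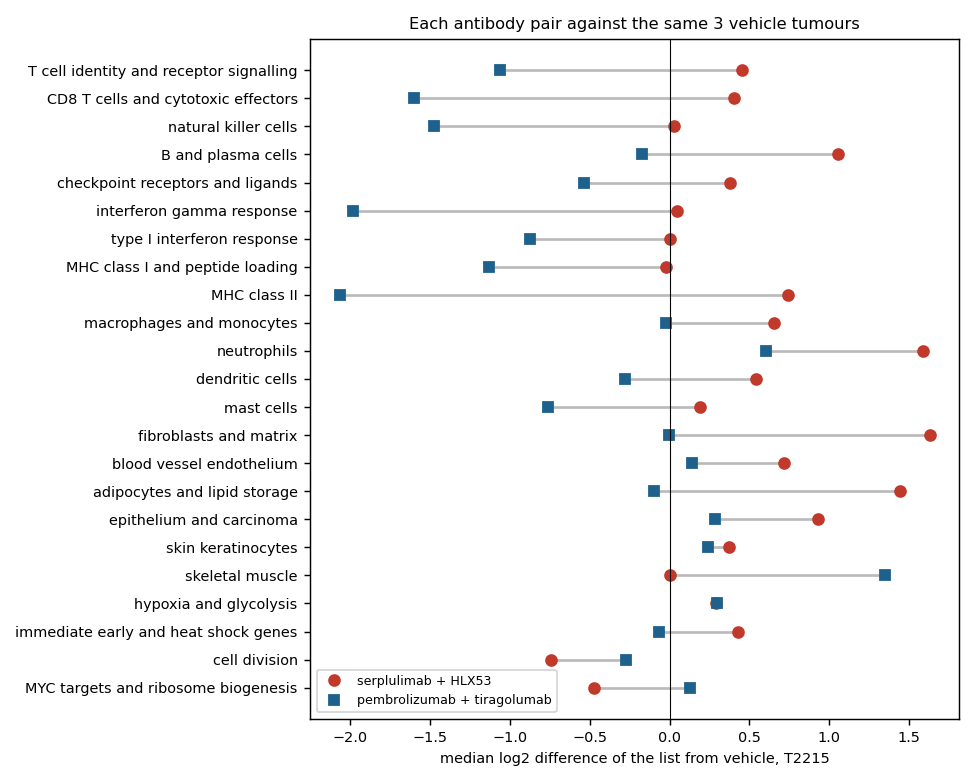
Median log2 difference from the 3 vehicle tumours of T2215 for 23 gene lists, circles for serplulimab with HLX53 and squares for pembrolizumab with tiragolumab; the line at 0 is vehicle. The interferon gamma list stood at 0.05 and −1.98 and the neutrophil list at 1.59 and 0.61; the contrasts share the vehicle tumours.

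The mixed combinations split the contrast by antibody, since both steps add up to it. Exchanging tiragolumab for HLX53, averaged over both PD-1 antibodies, gave 2 genes that fell (0.0134%), Gm43199 (−1.06 ± 0.16, adjusted p = 0.0226) and 2610021A01Rik (−0.95 ± 0.16, adjusted p = 0.0409), and 3662 genes at an unadjusted p under 0.05 (24.6%), 1603 higher (10.7%) and 2059 lower (13.8%). Exchanging pembrolizumab for serplulimab, averaged over both TIGIT antibodies, gave 1 gene that fell (0.00671%), Gm43199 (−1.10 ± 0.16, adjusted p = 0.0149), and 153 at an unadjusted p under 0.05 (1.03%). Both steps gave 0 genes with only the compared groups in the fit, and 0 with a filter at 2 FPKM. The TIGIT step gave 1, Gm43199, with a pseudocount of 0.1 or a replicate block. It gave 0 without replicate 1 or 2 of the serplulimab pair, 1 or 3 of serplulimab with tiragolumab, or 1 or 3 of the pembrolizumab pair. The PD-1 step gave 0 without replicate 1 or 2 of the serplulimab pair, 3 of serplulimab with tiragolumab, 1 of pembrolizumab with HLX53, or any 1 tumour of the pembrolizumab pair. T cell genes had a median of 1.06 for the TIGIT antibody, all 21 at an unadjusted p under 0.05, and 0.47 for the PD-1 antibody, none of them. Interferon gamma genes had medians of 1.49 (24 of 28) and 0.61 (0 of 28), class II genes 1.77 (10 of 10) and 1.01 (0 of 10), and cell division genes −0.44 (17 of 25 lower) and −0.05 (0 of 25). Cd8a, with 7.02, 1.66 and 2.37 FPKM in pembrolizumab with HLX53 and 1.03, 3.51 and 0.246 in serplulimab with tiragolumab, differed by 1.75 ± 0.67 for the TIGIT step (adjusted p = 0.177) and by 0.63 ± 0.67 for the PD-1 step (adjusted p = 0.987). H2-Aa, at 113, 32.6 and 45.6 against 32.3, 78.6 and 8.29 FPKM, gave 2.18 ± 0.75 and 1.21 ± 0.75. Both mixed groups overlapped each other in these genes, and whether the steps differ from each other was not tested. The same 12 tumours enter both steps.

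T2106 repeated the pairs in other tumours, and its 18 tumours were fitted apart because the tables were normalised apart. There 6414 of 15070 genes passed (42.6%), 3888 higher (25.8%) and 2526 lower (16.8%) with the serplulimab pair. With libraries centred on their medians the split was 3570 and 3492. The count was 1538 and 2247 without replicates 1 and 3 of the serplulimab pair, and 4171, 3074 and 3082 without replicates 1, 2 and 3 of the pembrolizumab pair. Over the 14646 genes tested in both experiments, which are not independent of each other, 12474 (85.2%) had the same sign, and r was 0.81. Of the 20 genes named by smallest p, 19 were tested in T2106, 18 had the same sign and 10 passed there in that direction. Among these were Polr1a (−1.14, adjusted p = 0.0156), Trp53 (−0.73, 0.0314), Tnfrsf1b (1.19, 0.0225) and Treml4 (2.02, 0.00994), while Stt3a stood at 0.01. Pdcd1 rose in T2106 (1.87, adjusted p = 0.0349; 3.46, 1.68 and 2.83 against 0.693, 0.224 and 0.182 FPKM) and Tigit fell (−1.5, adjusted p = 0.0296; 2.89, 11.9 and 3.81 against 14, 15.4 and 17.3).

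T cell, class II and connective tissue lists had medians above 1 in both experiments, while the interferon gamma list had a median near 0 in T2106. The list counts of T2106 stand beside 25.8% of all genes rising there and 16.8% falling. In T2106 the T cell list had a median of 2.13 with 21 of 22 genes rising, and class II genes 2.26 with 9 of 10. Cd8a rose there (15.1, 7.02 and 13.0 against 1.36, 0.517 and 1.12 FPKM, 3.01, adjusted p = 0.0115), as did H2-Aa (224, 67.9 and 171 against 19.0, 14.0 and 9.81, 3.27, adjusted p = 0.0246). Interferon gamma genes had a median of 0.02 in T2106 against 2.10 in T2215. In T2106 1 of 28 rose, Ciita, a smaller share than the 25.8% of all genes. Igtp had 137, 105 and 121 FPKM against 124, 151 and 114 in T2106, and the vehicle tumours there had 72.3, 51.3 and 103. So the pembrolizumab pair stood above vehicle in Igtp in T2106 and below it in T2215, where it had 17.0, 10.0 and 58.8 against 156, 85.1 and 88.0. Cytotoxic genes had a median of 0.96 in T2106 against 2.26 in T2215. In T2106 11 of 21 rose, beside 25.8% of all genes, and none fell. Gzmb did not pass there (174, 79.8 and 116 against 128, 95.3 and 105 FPKM, 0.11, adjusted p = 0.82). Fibroblast genes had a median of 3.98 in T2106 (20 of 22 rising) against 1.46, and adipocyte genes 4.46 (12 of 12) against 1.40. Adipoq had 70.6, 71.8 and 80.6 FPKM with the serplulimab pair of T2106 and 0.0575, 0.0778 and 0.0231 with the pembrolizumab pair, so fat RNA and treatment cannot be told apart there. The differences between the experiments were not tested.

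**Figure D5:**
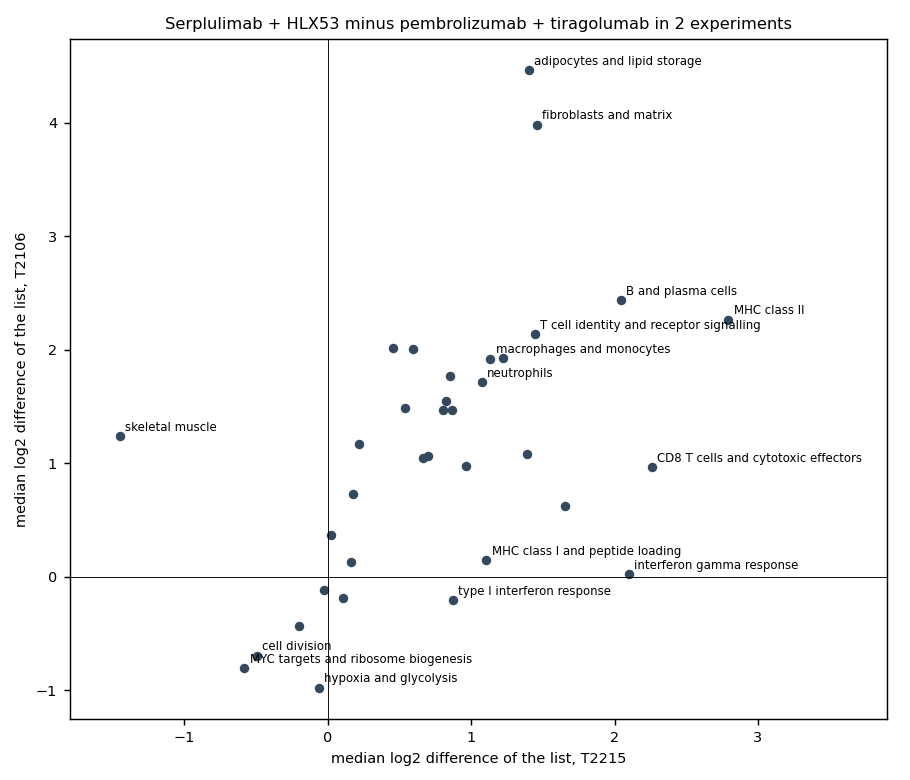
Median log2 difference between serplulimab with HLX53 and pembrolizumab with tiragolumab for each gene list, T2215 on the x axis and T2106 on the y axis; each point is a list and 15 are labelled. Class II genes were at 2.79 and 2.26, interferon gamma genes at 2.10 and 0.02, and adipocyte genes at 1.40 and 4.46.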

How the data were processed

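RNA of 45 CT26 tumours was sequenced as 150 nt paired reads on an MGISEQ-2000RS, per the labels' protocols. The tools in the submitters' processing notes are STAR, Bowtie, Trimmomatic and FastQC, and the builds are mm10, hg19 and GRCh37, with no versions or roles. For the quantifying program the sources used here name none. The authors deposited log2 FPKM per gene, 1 table per experiment, 47729 genes each. Values were returned to FPKM, genes at 0.5 FPKM or more in at least 3 libraries were kept, and log2(FPKM + 0.5) was fitted with limma 3.58.1 in R 4.3.3 (lmFit, eBayes with a trend) over all 27 tumours of T2215, or all 18 of T2106, so groups share 1 variance estimate per gene. Adjusted p-values are limma's with Benjamini-Hochberg adjustment over all genes tested. A fold on this scale understates the change of low genes. No counts were used here, so no counting interval is given. The fit was tested on simulated data.

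The pair, the 35 gene lists and the alternatives were chosen with earlier results of these data known. Genes named were to be up to 10 rises and 10 falls past the threshold outside Gm, Rik and dotted clone names, -ps pseudogenes and receptor segments, and as none of those passed, the 10 smallest p in each direction, plus a fixed panel. The panel member Ms4a1 lay below the filter and was not tested. Coordinates and transcripts are from GENCODE M21 (GRCm38), promoters from RefSeq (GRCm38.p6), and transcripts were compared with BLAST 2.17.0. Alternatives were the pseudocount, the filter, centring, the groups in the fit, a replicate block and each replicate left out.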

Additional observations from a re-analysis of the deposited data

How the results depend on the processing

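Between the pairs in T2215, 2 genes passed. Without a filter on low values 6 passed, and with a filter at 2 FPKM 1. With only the 6 compared tumours in the fit 1 passed (the pseudogene Gm29216), and without the 2 libraries rich in fat or muscle genes, an alternative chosen after the data were seen, 1. Leaving out each tumour in turn gave 2 to 14. The other alternatives, both pseudocounts, centring and the replicate block, kept 2. For the TIGIT antibody step, where 2 passed, a pseudocount of 0.1 gave 1, no filter 6, the stricter filter 0, only the compared groups 0 and the replicate block 1, and leaving out each tumour gave 0 to 13. For the PD-1 antibody step, where 1 passed, no filter gave 4, the stricter filter 0, centring 2 and only the compared groups 0, with 0 to 3 when tumours were left out. Against vehicle, the serplulimab pair went from 0 to 1 without a filter, to 1 with only the compared groups, and to 0 to 12 without single tumours. The pembrolizumab pair went from 2 to 4, 1 and 5 without a filter, with the stricter one and with only the compared groups, and to 1 to 2 without single tumours. In T2106 leaving out tumours gave 1538 to 7250 genes. Krt14, a skin keratin, moved from 0.83 to −0.16 without replicate 2 of the serplulimab pair and to 1.57 without its replicate 3. Of the other values for named genes under the alternatives, 614 kept their direction and side of the threshold, 3 lost the threshold and 1 gained it. Only Gm43199 and 2610021A01Rik had passed and could lose it, so most of the 614 are values of genes that did not pass in either setting. Same-numbered tumours of the pairs deviated with correlations of 0.11, −0.41 and −0.60, so the numbers do not pair them, and the block is given for completeness (2 genes in T2215, 5549 in T2106). The causes of these shifts were not tested. Depth is unknown.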

Other observations

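Fc gamma receptors and complement C1q, through which macrophages and natural killer cells sense antibody-coated cells, had higher means with the serplulimab pair in all 8 genes tested (median 1.22), 6 of them at an unadjusted p under 0.05, beside 11.6% of all genes, and none passed. Fcgr4, the receptor for IgG2 antibodies on mouse myeloid cells, had 134, 139 and 51.1 FPKM against 13.7, 7.63 and 46.2 without overlap (2.49 ± 0.84, limma adjusted p = 0.222), with vehicle at 117, 63.4 and 63.1. C1qa overlapped between the groups (1.27 ± 0.53). Without replicate 2 of the serplulimab pair 1 of the 8 had an unadjusted p under 0.05 (median 0.74), and without its replicate 1, or replicates 1 or 2 of the pembrolizumab pair, 2, 1 and 1. T cell costimulators had a median of 0.80 over 15 tested, with Icos at 2.77, 3.65 and 1.14 against 0.411, 0.485 and 0.882 FPKM and the glucocorticoid-induced receptor gene Tnfrsf18 at 4.87, 6.53 and 2.79 against 1.36, 0.705 and 2.24.

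Some pseudogene models switched between high and near 0 from tumour to tumour. Gm29216, annotated as an unprocessed pseudogene, had 667, 1082 and 756 FPKM with the serplulimab pair and was listed at about 0 in the 3 tumours of the pembrolizumab pair (limma adjusted p = 0.222). Among the vehicle tumours it had 682 and 401 FPKM in replicates 2 and 3 and about 0 in replicate 1. In T2106 it had 475, 426 and 937 FPKM with the serplulimab pair and at most 3.60 with the pembrolizumab pair (adjusted p = 0.00965). Rpl35a-ps3, a ribosomal protein pseudogene, had 0.162, 0.932 and 0.371 FPKM with the serplulimab pair and 1112, 637 and 40.8 with the pembrolizumab pair in T2215. The order was not the same in T2106 (0.00225, 1.05 and 0.0364 against 0.578, 0.0237 and 0.162). mt-Nd6, the mitochondrial gene encoded on the light strand, was the gene least like 2610021A01Rik across the 27 tumours (Pearson's r = −0.77) and had 615, 997 and 657 FPKM with the serplulimab pair against 375, 470 and 464, with vehicle at 1047, 1119 and 825.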
